A study of Mus musculus with 30 samples.

Results

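Perisynaptic diaphragm was compared with extrasynaptic diaphragm within 3 male control mice at 15 weeks of age. The libraries were chosen by the labelled genotype, age and region and by the animal in the library name, which gave 6 of the 30 libraries of the series: a perisynaptic and an extrasynaptic library from each of replicates 1, 2 and 3. The control genotype was HSA-Cre;BACfxAR121, so these mice carried the BACfxAR121 transgene, which encodes a human androgen receptor with an expanded glutamine tract, as did the mice with spinal and bulbar muscular atrophy (SBMA). Unlike SBMA mice they also carry HSA-Cre, a recombinase under a skeletal actin promoter that removes the transgene from muscle fibres. Nerve, vessel and connective tissue cells are not targets of this promoter, so these controls are not free of the transgene. Other groups used here are 8 libraries of 4 SBMA mice at 15 weeks, whose genotype label reads BACfxR121, and 8 libraries of 4 control mice at 26 weeks. RNA was sequenced after capture of mRNA, and reads were counted per gene. Each number below refers to these control mice at 15 weeks unless another group is named.

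The neuromuscular junction is the synapse between a motor nerve ending and a muscle fibre. Nuclei beneath it transcribe receptor, cholinesterase and scaffold genes that nuclei elsewhere in the same fibre keep low, under signals from the nerve that include agrin and neuregulin and under the repressing effect of electrical activity. In the diaphragm the junctions lie in a central band along which the phrenic nerve branches, so a piece with junctions also holds nerve twigs with their Schwann and perineurial cells.

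The perisynaptic libraries held 25296773, 29701993 and 16280873 counts, against 26702544, 25924318 and 24631445 in the extrasynaptic libraries, and the smallest of them was also the smallest of the series. Skeletal muscle was the main source of RNA in both regions: Myh1, a fast myosin heavy chain gene, ranged over 19879 to 22993 CPM (counts scaled to library size) in perisynaptic and 21018 to 25650 CPM in extrasynaptic libraries. The region labels were checked against the receptor gene Chrne, described below, which was at 21.6 CPM or more in every perisynaptic library and at 0.481 CPM or less in every extrasynaptic library. Features that resemble ribosomal RNA took 1.09% to 1.39% of counts in perisynaptic and 3.58% to 6.63% in extrasynaptic libraries, so the groups did not overlap in this technical measure. Their part in other results was not tested.

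Of 16138 genes tested, 151 were higher in the perisynaptic than in the extrasynaptic pieces and 37 were lower, which is 0.936% and 0.229% of the genes, and 1.16% together. Calls rest on edgeR's quasi-likelihood test with the animal as a term and a Benjamini-Hochberg adjusted p under 0.05, and log2 fold changes are given ± SE as perisynaptic over extrasynaptic. Of the higher genes 105 differed by more than 2-fold and 141 encode proteins, with a median log2 fold change of 1.77. Of the lower genes 25 differed by more than 2-fold, with a median of -1.88. All 3 perisynaptic libraries lay above all 3 extrasynaptic libraries for 142 of the 151 higher genes, and below them for 31 of the 37 lower genes. Over all genes tested 4.35% lay above and 3.02% below without overlap. The median gene stood at -0.0037 on the log2 scale. With total-count scaling it moved to 0.094, and 90.7% of calls were higher in place of 80.3%.

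**Figure D1:**
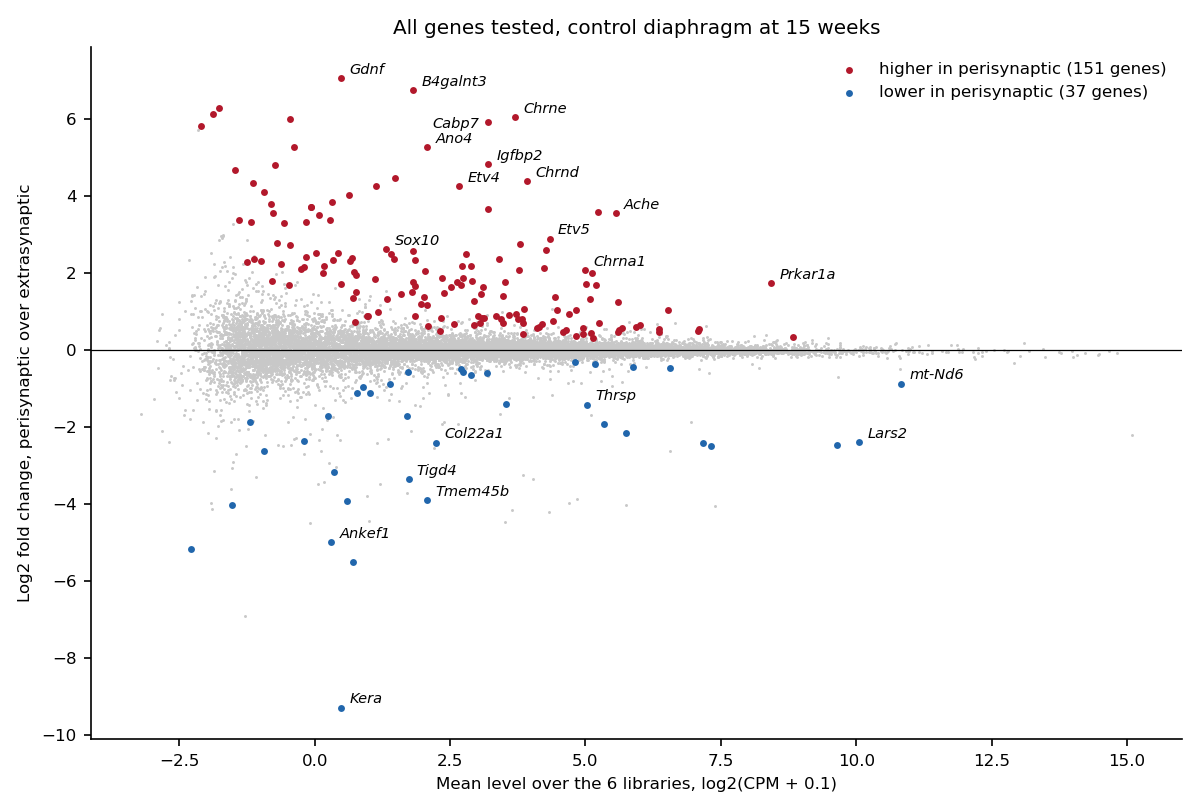
Each point is a gene tested in control diaphragm at 15 weeks, with its mean level over the 6 libraries, as log2(CPM + 0.1), on the x axis and its log2 fold change, perisynaptic over extrasynaptic, on the y axis. Red points are the 151 genes called higher in perisynaptic pieces and blue points the 37 called lower; the higher calls reach 7.05 (Gdnf) and the lower calls -9.29 (Kera).

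Acetylcholine receptor genes carried some of the largest rises. The adult muscle receptor is built from alpha, beta, delta and epsilon subunits, and the fetal receptor has gamma in place of epsilon. Of these 5 subunit genes, 4 were higher in perisynaptic muscle and none lower, with a list median of 2.23 against -0.0037 for all genes. That median is the value of Chrng, the subunit gene that did not pass and was near the limit of detection. Chrne, the epsilon subunit that marks adult receptors (ENSMUSG00000014609.16, GRCm38 chromosome 11, 70614883 to 70619216), measured 28.9, 21.6 and 25.4 CPM in perisynaptic libraries and 0.326, 0.481 and 0.324 CPM in extrasynaptic libraries. The regions were far apart in every animal (6.05 ± 0.683 on the log2 scale, adjusted p = 6.31e-05). Behind the extrasynaptic values stood 8, 11 and 7 counts, so the size of this ratio rests on few reads.

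Chrnd, the delta subunit (chromosome 1, 87190607 to 87200070), stood at 32.3, 25.9 and 27.9 CPM in perisynaptic pieces and at 1.26, 1.44 and 1.43 CPM in extrasynaptic pieces (4.37 ± 0.406, adjusted p = 7.52e-06). Chrna1, the alpha subunit that binds acetylcholine (ENSMUSG00000027107.3, chromosome 2, 73563215 to 73580338), was at 53.6, 47.8 and 52.2 CPM in perisynaptic libraries, against 10.3, 11.9 and 14.3 CPM in extrasynaptic libraries. The alpha gene was thus readily detected away from the junctions, unlike epsilon and delta, and its log2 fold change was 2.08 ± 0.126 (adjusted p = 3.48e-08). Chrnb1, the beta subunit, was at 37.9, 38.9 and 41.5 CPM in perisynaptic pieces and 25.6, 31.8 and 29.3 CPM in extrasynaptic pieces, without overlap (0.45 ± 0.101, adjusted p = 0.0351). Its call was lost when any 1 of the 3 animals was left out, with log2 values of 0.39 to 0.53. Chrng, the fetal gamma subunit, was near the limit of detection at 0.370, 0.515 and 0.599 CPM in perisynaptic pieces and 0, 0.306 and 0 CPM in extrasynaptic pieces, and did not pass (2.23 ± 0.966, adjusted p = 0.558).

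Promoters of these receptor genes are shown because the region differences of the subunits ranged from 0.45 to 6.05. Chrnd had no promoter entry and is not shown. A pair of short motifs of synaptic promoters are known from mouse and rat work, the N-box and the E-box. The N-box CCGGAA reads as TTCCGG on the other strand and is bound by ETS factors. Myogenic factors bind the E-box, of which only the form CAGCTG, which reads alike on both strands, was searched. The sequences are from RefSeq on GRCm38.p6 and run 5′ to 3′ on the strand of the gene, from 250 bases before to 50 bases after the annotated start. Capitals mark each copy of the motifs.
Chrne, epsilon, chr11:70619145-70619444, minus strand: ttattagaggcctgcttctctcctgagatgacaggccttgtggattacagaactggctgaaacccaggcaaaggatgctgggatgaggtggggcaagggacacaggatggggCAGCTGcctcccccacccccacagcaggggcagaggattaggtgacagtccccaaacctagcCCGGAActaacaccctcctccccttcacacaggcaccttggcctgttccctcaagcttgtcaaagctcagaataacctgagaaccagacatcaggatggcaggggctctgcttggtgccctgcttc
Chrna1, alpha, chr2:73580289-73580588, minus strand: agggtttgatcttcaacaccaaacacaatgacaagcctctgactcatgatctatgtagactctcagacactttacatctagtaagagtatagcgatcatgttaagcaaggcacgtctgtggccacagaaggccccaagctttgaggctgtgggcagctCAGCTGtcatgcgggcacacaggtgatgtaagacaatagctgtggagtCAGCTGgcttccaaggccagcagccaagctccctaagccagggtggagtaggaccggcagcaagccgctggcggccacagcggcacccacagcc
Chrnb1, beta, chr11:69795888-69796187, minus strand: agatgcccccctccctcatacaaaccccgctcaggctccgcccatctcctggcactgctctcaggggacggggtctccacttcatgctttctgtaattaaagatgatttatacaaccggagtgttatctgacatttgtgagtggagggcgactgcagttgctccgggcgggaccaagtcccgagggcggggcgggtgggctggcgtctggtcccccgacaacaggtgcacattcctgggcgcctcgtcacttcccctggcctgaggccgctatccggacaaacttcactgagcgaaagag
Chrng, gamma, chr1:87205561-87205860, plus strand: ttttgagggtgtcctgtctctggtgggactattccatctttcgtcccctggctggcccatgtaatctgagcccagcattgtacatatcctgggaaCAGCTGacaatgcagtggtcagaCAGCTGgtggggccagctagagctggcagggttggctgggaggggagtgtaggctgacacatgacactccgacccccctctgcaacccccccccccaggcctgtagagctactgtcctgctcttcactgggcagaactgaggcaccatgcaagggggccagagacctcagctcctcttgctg

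In the Chrne window an N-box began 76 bases before the start and an E-box 138 bases before it. The Chrna1 window held E-boxes at 92 and 44 bases before the start and the Chrng window at 155 and 132 bases before it. Neither an N-box nor CAGCTG was found in the Chrnb1 window, and other forms of the E-box were not searched. An N-box occurs in 14.9% and an E-box in 16.3% of 32851 promoter windows of this length. Of 34 members of the receptor, agrin and MuSK, cholinesterase, and ErbB and ETS lists, 25 had a promoter entry. Among the 7 of these that were called higher, 1 had an N-box and 3 an E-box, and among the 18 that were not called, 7 and 4 did. A member was counted if any of its windows held the motif, and some members have several. The shares over all promoters are per window, so the measures are not alike. A match is a description of these letters and not a binding site.

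Genes of the enzyme that ends the signal were also higher. Ache, which encodes acetylcholinesterase (chromosome 5, 137287519 to 137294466), measured 101, 77.7 and 80.3 CPM in perisynaptic libraries and 5.86, 8.35 and 7.91 CPM in extrasynaptic libraries. Its perisynaptic level was high in all 3 animals and no extrasynaptic library came close (3.55 ± 0.295, adjusted p = 2.61e-06). Colq, the collagen tail that anchors the enzyme in the synaptic cleft, was at 34.6, 38.4 and 38.8 CPM in perisynaptic pieces and 11.1, 21.4 and 25.0 CPM in extrasynaptic pieces (1.02 ± 0.146, adjusted p = 0.000787). Here the extrasynaptic levels spread more widely than the perisynaptic ones, and replicate 1 had the largest difference. Ufsp1, a protease gene that begins at 137294629 on the same strand just past the end of Ache, rose by 2.06 ± 0.194. In all 3 of the 6 genes on the cholinesterase and anchor list were higher and none lower (median 0.58). The list counts Ufsp1, which is neither a cholinesterase nor an anchor.

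Most genes of the agrin and MuSK pathway, which clusters receptors under the nerve ending, did not pass. Agrin from the nerve binds LRP4, LRP4 activates the kinase MuSK, and MuSK acts with Dok-7 and rapsyn. Of 13 tested genes 2 were higher and none lower, and the median was 0.09. Over all genes tested 0.936% were called higher and 0.229% lower. Lrp4 was at 58.2, 59.0 and 54.7 CPM in perisynaptic pieces and 35.3, 46.2 and 39.7 CPM in extrasynaptic pieces (0.51 ± 0.103, adjusted p = 0.0161), a difference without overlap whose call was lost without replicate 1 or replicate 3. Phldb2, a membrane-anchored organiser of receptor clusters, had 26.1, 35.2 and 32.7 CPM in perisynaptic and 11.8, 13.9 and 10.2 CPM in extrasynaptic libraries (1.38 ± 0.128, adjusted p = 7.52e-06) and passed without each animal in turn.

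Musk itself measured 41.1, 31.5 and 43.3 CPM in perisynaptic pieces and 26.3, 22.5 and 27.1 CPM in extrasynaptic pieces. The regions did not overlap, but the gene did not pass (0.60 ± 0.165, adjusted p = 0.115). It did pass with DESeq2, with total-count scaling, without the filter on low counts and in fits of fewer groups, at log2 values of 0.59 to 0.70. The remaining core genes stood close to 0: Agrn at 0.09 ± 0.095, Rapsn at -0.03 ± 0.079 and Dok7 at -0.11 ± 0.085, with adjusted p of 0.963, 0.996 and 0.907. Dok7 varied more between animals than between regions, with replicate 2 at 21.4 CPM in the perisynaptic and 26.0 CPM in the extrasynaptic piece and the other animals at 48.2 CPM or more.

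**Figure D2:**
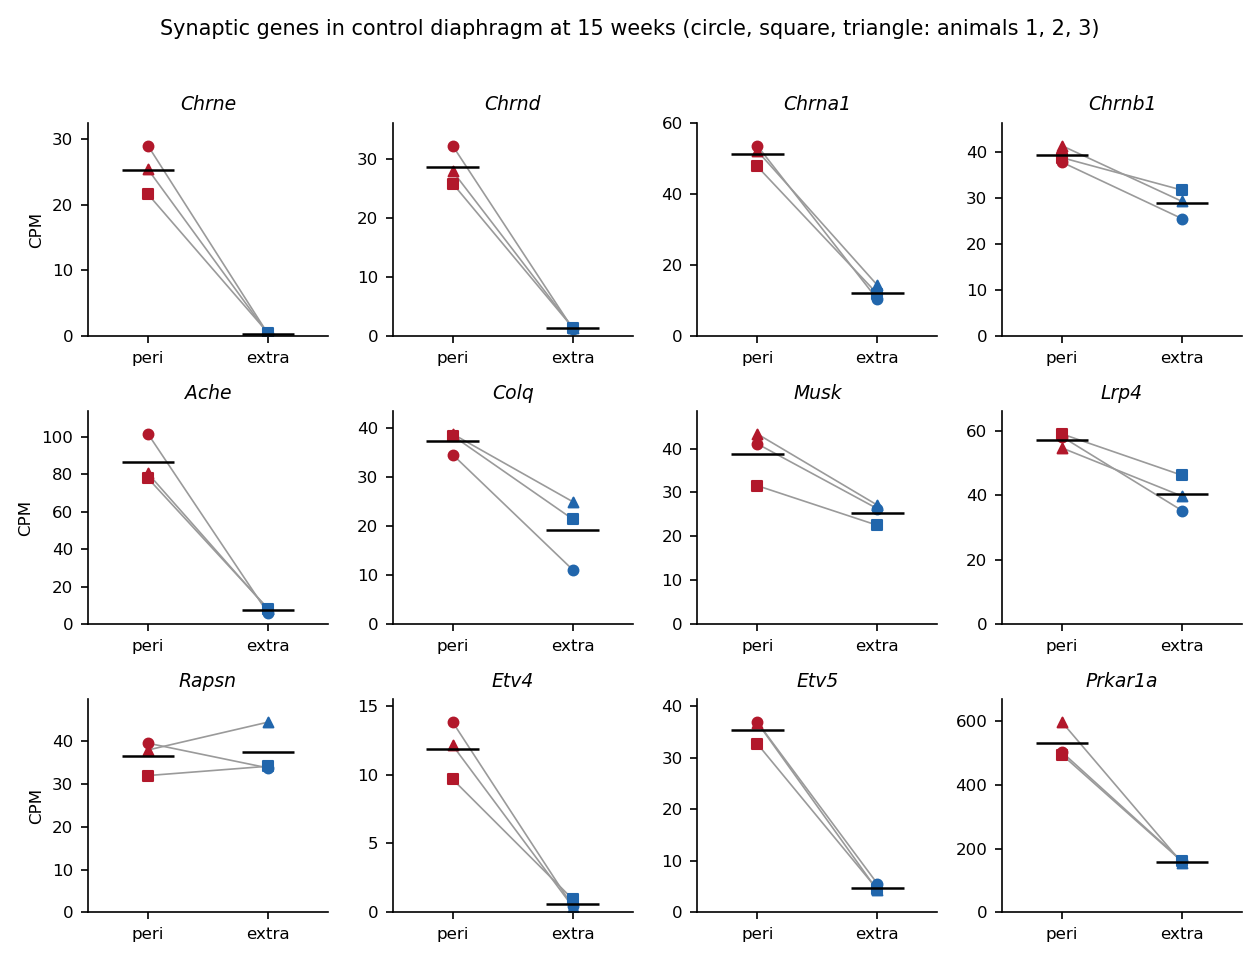
Levels in CPM of 12 synaptic genes in the perisynaptic (left, red) and extrasynaptic (right, blue) library of each of the 3 control animals at 15 weeks. Circles, squares and triangles are replicates 1, 2 and 3, grey lines join the 2 libraries of an animal and black bars are means; Chrne, Chrnd, Ache, Etv4 and Etv5 separate widely, Musk and Lrp4 separate by less, and Rapsn overlaps between the regions.

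Among genes of the neuregulin and ETS branch, which relays nerve signals to synaptic promoters, the ETS factors Etv5 and Etv4 passed. Etv5 (chromosome 16, 22381309 to 22439719) was at 36.9, 32.7 and 36.8 CPM in perisynaptic pieces and 5.58, 4.46 and 4.30 CPM in extrasynaptic pieces. The libraries of a region were tightly grouped, and Etv5 shared the lowest adjusted p of the comparison (2.89 ± 0.138, adjusted p = 2.69e-09). Etv4, a related ETS factor, was at 13.8, 9.65 and 12.1 CPM in perisynaptic and 0.448, 0.962 and 0.416 CPM in extrasynaptic libraries (4.26 ± 0.398, adjusted p = 7.52e-06). They were the only 2 of 8 list members that passed, and the list median was 0.14. Erbb3, a neuregulin receptor also made by Schwann cells, stood at 0.33 ± 0.092 (adjusted p = 0.117) and passed with total-count scaling. Nrg1, which encodes neuregulin, was too low to test, at 0.2 to 0.309 CPM in perisynaptic and 0.0463 to 0.219 CPM in extrasynaptic libraries.

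Prkar1a had the highest perisynaptic level of the genes that rose by more than 2-fold. It encodes a regulatory subunit of protein kinase A (chromosome 11, 109649405 to 109669656) and measured 502, 494 and 596 CPM in perisynaptic pieces, against 161, 159.9 and 155 CPM in extrasynaptic pieces. Extrasynaptic levels were nearly equal in the 3 animals, and the log2 fold change was 1.74 ± 0.0862 (adjusted p = 2.69e-09), which is the same adjusted p as that of Etv5. Nes, which encodes the intermediate filament nestin, was at 120.3, 121 and 125 CPM in perisynaptic and 40.2, 86.7 and 60.8 CPM in extrasynaptic libraries (1.03 ± 0.204, adjusted p = 0.0147), a call lost without replicate 1 or 3. These were the only calls among 18 genes of the synaptic membrane and scaffold. Utrn (utrophin, 0.20 ± 0.0865, adjusted p = 0.562) and Scn4a (the muscle sodium channel, 0.12 ± 0.142, adjusted p = 0.981), whose proteins are concentrated at the junction, did not pass.

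Genes known from single-nucleus work as markers of synaptic nuclei in mouse muscle were higher in 5 of 16 cases and lower in none (median 0.28). Ano4, a membrane protein of the anoctamin family, was at 8.29, 7.59 and 8.18 CPM in perisynaptic pieces and 0.163, 0.306 and 0.139 CPM in extrasynaptic pieces (5.27 ± 0.415, adjusted p = 1.59e-06). Pdzrn4, which encodes a protein with PDZ and RING domains, stood at 4.47 ± 0.439, and Hs6st2, a sulfotransferase that modifies heparan sulfate, at 2.06 ± 0.238. Gramd1b, a sterol transfer protein, rose by the smaller amount of 0.57 ± 0.0815. Ano4, Pdzrn4, Hs6st2 and Gramd1b passed without each animal in turn.

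In the basal lamina of the cleft the calls were of collagen genes. Of 10 genes of the synaptic lamina 3 were higher: Col25a1, a membrane collagen that motor innervation needs (1.95 ± 0.229), Col4a3 (1.68 ± 0.176) and Col4a4 (0.70 ± 0.164), which encode chains of collagen IV. Col4a3 was at 10.1, 11.2 and 7.98 CPM in perisynaptic and 2.44, 4.68 and 2.22 CPM in extrasynaptic libraries, without overlap. Col4a4 was at the edge of the threshold (adjusted p = 0.0479) and lost its call without replicate 1 or 3. Lamb2 (0.10 ± 0.0697) and Lama5 (0.13 ± 0.106), laminin chains of the cleft, did not pass, and none of 6 genes of the general lamina did. On a separate list of 24 collagen genes Col19a1 was the only rise and Col22a1, described with the tendon genes, the only fall. That list does not hold every collagen gene. Col19a1 was at 1.27, 1.37 and 1.06 CPM in perisynaptic pieces and 0, 0.0437 and 0 CPM in extrasynaptic pieces, 87 counts against 1. That is a ratio of 87.7 with a 95% exact counting interval of 15.3 to 3503.

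The largest rise of all was that of Gdnf, a trophic factor for motor neurons (ENSMUSG00000022144.4, chromosome 15, 7810846 to 7837575). It measured 3.20, 1.92 and 2.59 CPM in perisynaptic pieces and 0, 0.0437 and 0 CPM in extrasynaptic pieces. The perisynaptic libraries held 173 counts together and the extrasynaptic libraries 1, a ratio of 174 with a 95% exact counting interval of 30.9 to 6927 (log2 fold change 7.05 ± 0.685, adjusted p = 1.15e-05). Intervals of this kind cover counting error only. Fgf5, another growth factor, was the only other call among 14 trophic factors (3.33 ± 0.675, adjusted p = 0.0171), at under 1 CPM in every library, and lost its call without replicate 1 or 3. The neurotrophin genes Bdnf, Ntf3 and Ntf5 stood at 0.15 to 0.18 and did not pass.

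Several of the largest rises were on none of the synaptic lists. B4galnt3, which encodes an enzyme that adds N-acetylgalactosamine to glycans, was at 6.32, 5.12 and 8.98 CPM in perisynaptic libraries and 0, 0.131 and 0.0463 CPM in extrasynaptic libraries (6.74 ± 0.630, adjusted p = 7.52e-06). Cabp7, a calcium-binding protein gene, was at 20.7, 14 and 19.2 CPM in perisynaptic and 0.122, 0.568 and 0.185 CPM in extrasynaptic pieces (5.91 ± 0.499, adjusted p = 2.87e-06). Igfbp2, a secreted binding protein of insulin-like growth factors, was at 20.8, 13.5 and 18.3 CPM in perisynaptic and 0.814, 0.437 and 0.602 CPM in extrasynaptic pieces (4.81 ± 0.386, adjusted p = 1.73e-06). All 3 were called without each animal in turn, and none of their perisynaptic libraries came near the extrasynaptic ones. Sfrp5, a secreted inhibitor of Wnt signals, stood at 3.66 ± 0.593 with 23.1, 12.5 and 15.1 CPM in perisynaptic and 0.366, 2.58 and 1.06 CPM in extrasynaptic libraries. The Sfrp5 call was lost without replicate 1, at a log2 value of 2.91. Cabp7 overlaps Zmat5 on the opposite strand, and because the strand setting of the counting is not given in the sources used here, reads of such pairs cannot be told apart.

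Markers of nerve sheath cells moved with the synaptic genes. Of 25 Schwann cell and myelin genes 17 were higher in perisynaptic pieces and none lower, against 0.936% and 0.229% of all genes tested. The list median was 1.72 on the log2 scale. The summed level of these 25 genes was 369.6, 262 and 309.5 CPM in perisynaptic and 108, 155 and 108 CPM in extrasynaptic libraries. In bulk tissue, more cells of a type and more RNA per cell cannot be told apart. Replicate 2 had the lowest perisynaptic and the highest extrasynaptic sum, and the regions did not overlap.

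Mbp, a protein that compacts myelin, was at 59.7, 41.9 and 46.4 CPM in perisynaptic and 14.1, 19.0 and 11.9 CPM in extrasynaptic libraries (1.72 ± 0.273, adjusted p = 0.00216). Cldn19, a tight junction protein of myelin loops, stood at 4.25 ± 0.659, Ncmap, a protein of noncompact myelin, at 4.03 ± 0.626, and Gjc3, a connexin of myelinating glia, at 3.84 ± 0.407. Sox10, a transcription factor that defines Schwann cells, was at 4.72, 3.37 and 4.32 CPM in perisynaptic and 0.611, 0.831 and 0.555 CPM in extrasynaptic pieces (2.61 ± 0.357, adjusted p = 0.000485). Gldn, which encodes the nodal protein gliomedin, stood at 3.71 ± 0.422, Kcna1, a potassium channel beside the nodes, at 2.32 ± 0.291 and Mal at 1.65 ± 0.231. Sox10, Gldn, Kcna1, Mal and Gjc3 passed without each animal in turn, and Mbp, Cldn19 and Ncmap lost the call without replicate 1. S100b, a calcium-binding protein of glia (2.39 ± 0.434), lost its call without replicate 1 or 3 and overlaps Dip2a on the opposite strand.

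The perineurium, which wraps nerve bundles, was represented by 4 of 9 genes called higher, against 0.936% of all genes tested. Cldn1, a tight junction gene of that sheath, was at 5.95, 5.15 and 6.52 CPM in perisynaptic and 0.774, 1.31 and 0.879 CPM in extrasynaptic libraries (2.56 ± 0.485, adjusted p = 0.0104). Lypd2 (3.56 ± 0.660), Moxd1 (2.18 ± 0.455) and Itgb4, an integrin chain (1.39 ± 0.293), also passed, and all 4 calls were lost in at least 2 of the 3 fits that leave out an animal. None of 9 tested axonal transcripts passed (median 0.00), and 8 of the 17 in the table were too low to test. Nefl, a neurofilament gene, had 1 count in the perisynaptic and 5 in the extrasynaptic libraries in all. How much of any rise came from nerve sheath cells was not tested.

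**Figure D3:**
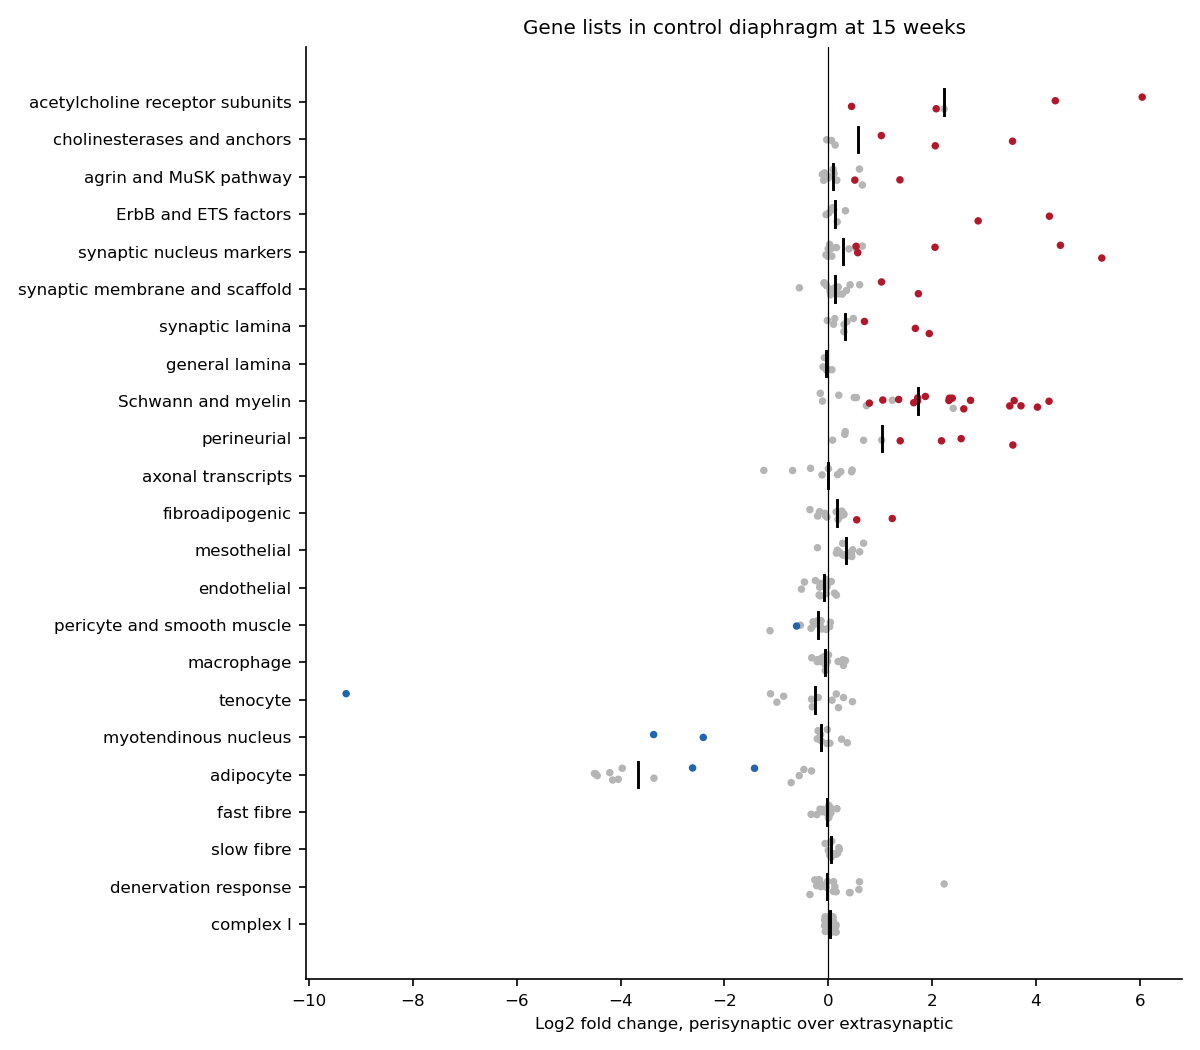
Log2 fold changes, perisynaptic over extrasynaptic, of the tested members of 23 gene lists in control diaphragm at 15 weeks. Each point is a gene, red if called higher, blue if called lower and grey if not called, and the black line is the list median. Receptor (2.23, the value of the uncalled Chrng) and Schwann and myelin (1.72) medians lie to the right, the adipocyte median (-3.66) to the left and fibre lists near 0.

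Most markers of connective tissue cells did not pass. Of 14 markers of fibroadipogenic progenitors, the resident fibroblasts of muscle, 2 were higher and none lower. Over all genes tested 0.936% were called higher and 0.229% lower. Cxcl14, a chemokine, was at 77.0, 58.7 and 68.2 CPM in perisynaptic and 30.3, 24.2 and 32.4 CPM in extrasynaptic pieces (1.23 ± 0.152, adjusted p = 0.000167). Smoc2, a matrix protein, stood at 0.55 ± 0.111 and lost its call without replicate 1 or 3. None of 16 endothelial, 18 macrophage or 14 other blood cell genes passed, with medians of -0.08, -0.06 and -0.04. Mesothelial markers of the diaphragm surface did not pass in any of 15 cases, although 14 were positive and the median was 0.34. Their summed level was 700.9, 824 and 522 CPM in perisynaptic and 473, 578 and 539 CPM in extrasynaptic libraries, with overlap.

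No gene passed in most programs of the fibre itself. None of 16 fast-fibre genes, 12 slow-fibre genes or 32 genes of the Z disc, M band and filaments passed, with medians of -0.02, 0.06 and 0.01. Myh2 was at 8411 to 10130 CPM in perisynaptic and 7743 to 8770 CPM in extrasynaptic pieces (0.17 ± 0.0982, adjusted p = 0.797). Myh7, the slow myosin gene, ranged over 2041 to 2165 CPM in perisynaptic and 1938 to 2347 CPM in extrasynaptic pieces (-0.06 ± 0.149, adjusted p = 0.996). Myh4 was more variable, with 4051 CPM in the perisynaptic piece of replicate 3 and 8213 CPM or more in those of the others (-0.33 ± 0.311, adjusted p = 0.961). No gene passed among 36 of complex I, 41 of complexes II to V or 20 of satellite cells and myogenic factors.

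None of 20 genes that respond to loss of the nerve passed, and their median was -0.03. Runx1, a transcription factor induced by denervation, was at 4.80, 6.46 and 9.98 CPM in perisynaptic and 6.92, 10.3 and 8.98 CPM in extrasynaptic libraries (-0.35 ± 0.184, adjusted p = 0.705). Myog, a myogenic factor, stood at 0.41 ± 0.161 (adjusted p = 0.463) and Ncam1, an adhesion molecule, at 0.42 ± 0.158 (adjusted p = 0.402). Of 29 genes of excitation-contraction coupling the only call was that of Cacng1, which encodes a calcium channel subunit of muscle. It was lower in perisynaptic pieces in each animal, at 64.4, 39.1 and 46.6 CPM against 86.8, 56.8 and 58.7 CPM in extrasynaptic pieces, but the ranges overlapped (-0.44 ± 0.0850, adjusted p = 0.0128) and the call was lost when any 1 animal was left out.

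The 37 genes that were lower in perisynaptic pieces included genes of tendon attachment. Kera, which encodes the tendon proteoglycan keratocan (chromosome 10, 97606879 to 97613692), had no count in any perisynaptic library and 59, 122 and 1 counts, or 2.40, 5.33 and 0.0463 CPM, in the extrasynaptic libraries. Against a floor of 3 counts over the perisynaptic group it was at least 60.2-fold lower (adjusted p = 0.00303). Replicates 1 and 2 carried nearly all of these counts, and DESeq2 did not call the gene. Tigd4, a transposon-derived gene that marks nuclei at the myotendinous junction (chromosome 3, 84593574 to 84597032), was at 0.780, 0.653 and 0.266 CPM in perisynaptic and 6.03, 10.6 and 1.02 CPM in extrasynaptic pieces (-3.36 ± 0.378, adjusted p = 6.18e-05). It was lower in every animal without overlap.

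Col22a1, the collagen of that junction, was at 2.46, 1.17 and 0.599 CPM in perisynaptic and 7.08, 15.0 and 1.39 CPM in extrasynaptic pieces (-2.41 ± 0.566, adjusted p = 0.0474). Its ranges overlapped because replicate 3 was low in both regions, and the call was lost when any 1 animal was left out. Tnmd, a tendon cell gene, was at 2.14, 2.54 and 2.86 CPM in perisynaptic and 5.17, 10.7 and 1.76 CPM in extrasynaptic pieces and did not pass (adjusted p = 0.543). In all 1 of 12 tenocyte markers and 2 of 11 myotendinous markers were lower and none higher. Over all genes tested 0.229% were called lower. The list medians were -0.25 and -0.13, and 5 and 3 members were positive. Summed tenocyte levels were 269, 268 and 229 CPM in perisynaptic and 204, 423 and 157 CPM in extrasynaptic libraries, with overlap. Summed myotendinous levels were 268, 266 and 259 CPM against 252, 302 and 274 CPM, also with overlap. Only Tigd4 and Kera among the 37 were called without each animal in turn, against 55 of the 151 higher genes.

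Fat cell markers were lower in perisynaptic pieces by a wide margin that few members passed. All 14 tested adipocyte genes had a negative log2 fold change (median -3.66), 10 did not overlap between the regions, and 2 passed. Of all genes tested 3.02% lay below without overlap and 0.229% were called lower. The summed level of the list was 1142, 933 and 771 CPM in perisynaptic libraries and 2720, 1217 and 1956 CPM in extrasynaptic libraries. Thrsp, a regulator of lipid synthesis, was at 18, 14.9 and 17.2 CPM in perisynaptic and 75.4, 26.5 and 43.0 CPM in extrasynaptic pieces (-1.42 ± 0.284, adjusted p = 0.0156). Tshr, a hormone receptor found on fat cells, stood at -2.61 ± 0.575 (adjusted p = 0.0306) and was under 1.1 CPM throughout. Thrsp lost its call without replicate 1 or 3, and Tshr when any 1 animal was left out. Adipoq, the fat hormone adiponectin, was at 0.862, 1.92 and 2.73 CPM in perisynaptic and 61.6, 13.8 and 38.8 CPM in extrasynaptic pieces. Its extrasynaptic level differed more than 4-fold between animals, and with an SE of 1.08 the log2 fold change of -4.21 did not pass (adjusted p = 0.0788). DESeq2 and the fits of fewer groups called Adipoq, Plin1 and Cfd.

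Other large falls were of genes on no list. Tmem45b, which encodes a membrane protein, was at 0.164, 0.721 and 0.466 CPM in perisynaptic and 12.4, 3.54 and 7.45 CPM in extrasynaptic pieces (-3.91 ± 0.890, adjusted p = 0.0392). Cyp2f2, a cytochrome of the P450 family, stood at -3.92 ± 0.772 and Ankef1 at -4.98 ± 1.05. Each of these calls was lost without replicate 1 or 3. In Tmem45b, Cyp2f2 and Ankef1 the extrasynaptic level was highest in replicate 1, then replicate 3, then replicate 2, which is also the order of Adipoq, Plin1 and the summed fat list. The part of fat tissue in these falls was not tested. Klhdc7a fell by 1.72 ± 0.397. Lmod1, a smooth muscle gene that is on a list, fell by the smaller amount of 0.61 ± 0.138. It was the only call among 13 pericyte and smooth muscle genes, 11 of them negative (median -0.20). Neither Klhdc7a nor Lmod1 was called when any 1 animal was left out.

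**Figure D4:**
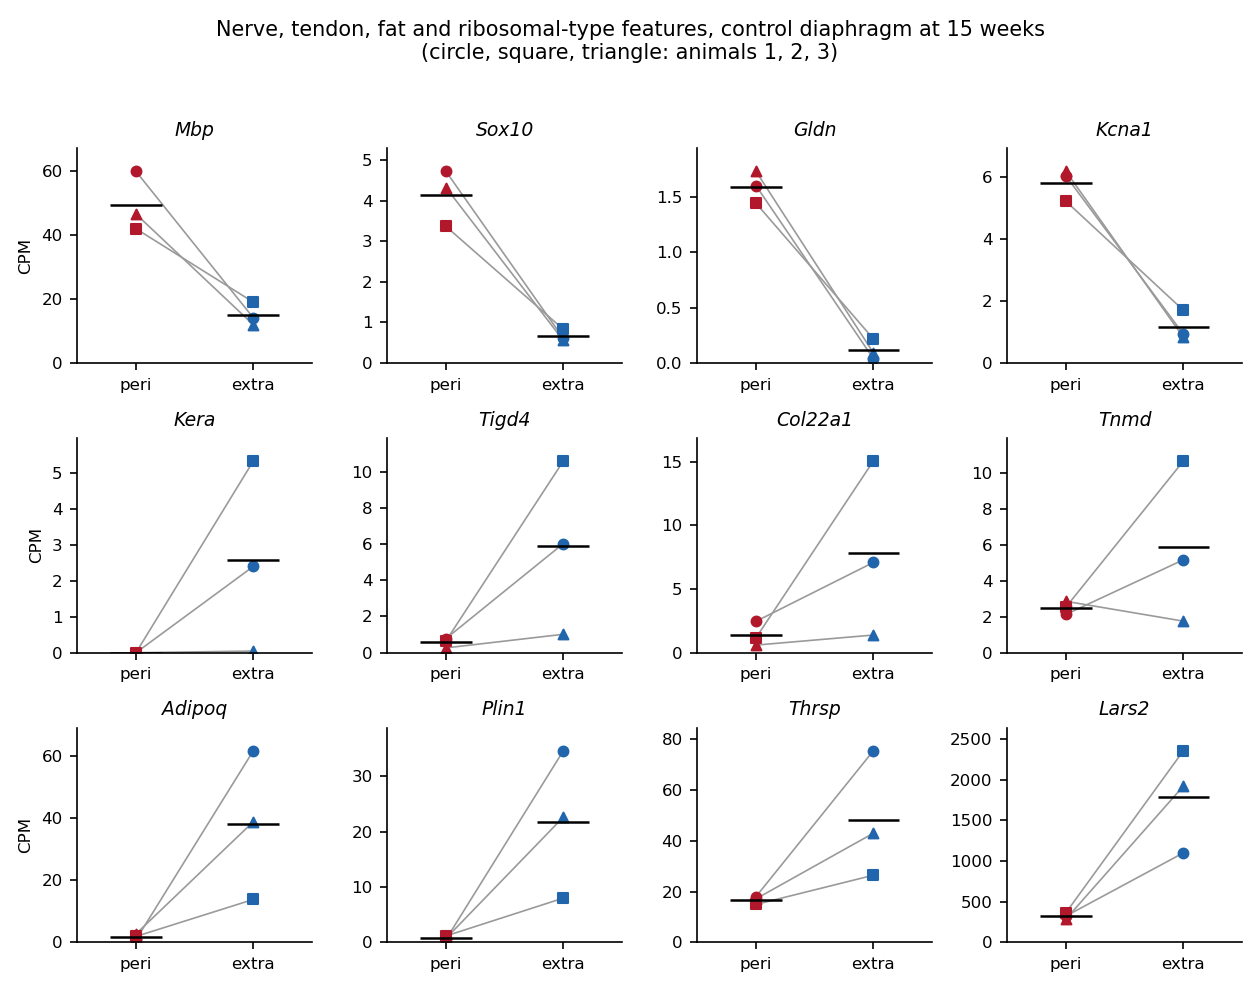
Levels in CPM of 12 genes in the perisynaptic (left, red) and extrasynaptic (right, blue) libraries of the 3 control animals at 15 weeks, with circles, squares and triangles for replicates 1, 2 and 3, lines joining the libraries of an animal and black bars at the means. Nerve sheath genes (top row) are higher in perisynaptic pieces in each animal, while tendon (middle row), fat and ribosomal-type genes are high in extrasynaptic pieces to a degree that differs between animals, and Tnmd is reversed in replicate 3.

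Features that resemble ribosomal RNA formed another part of the lower calls. Lars2, a mitochondrial tRNA synthetase gene on which ribosomal reads often fall in mouse (chromosome 9, 123366927 to 123462666), was at 324, 366 and 288 CPM in perisynaptic and 1100, 2354 and 1920.3 CPM in extrasynaptic libraries (-2.40 ± 0.487, adjusted p = 0.0172). Mir6236 (-2.46 ± 0.519), Gm15564 (-2.49 ± 0.536), Gm23935 (-2.42 ± 0.557) and CT010467.1 (-2.15 ± 0.504) moved with it. Gm37194, which is not among the 79 features counted as like ribosomal RNA, stood at -1.92 ± 0.381. CT010467.1 overlaps Gm42418, which took 1.03% to 1.31% of counts in perisynaptic and 3.36% to 6.20% in extrasynaptic libraries and did not pass (-2.21 ± 0.528, adjusted p = 0.0536). Every one of these calls was lost when any 1 of the 3 animals was left out. The mitochondrial transcripts mt-Nd6 (-0.87 ± 0.179, adjusted p = 0.0184) and mt-Tq (-3.18 ± 0.656, adjusted p = 0.0195) were also lower, and both lie on the strand opposite to most mitochondrial genes and overlap a neighbour there. Of the 7 tested mitochondrial protein genes mt-Nd6 alone was called, and mt-Nd3, mt-Co2 and mt-Co3 are listed at 0 in all 6 libraries.

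The sizes of the differences were not equal in the 3 animals. The median within-animal log2 difference of the 151 higher genes was 1.95 in replicate 1, 1.27 in replicate 2 and 1.70 in replicate 3. Replicate 2 had the smallest of the 3 differences for 106 of these genes (70.2%), against 36% of all tested genes with a positive log2 fold change, and replicate 1 the largest for 95 (62.9%, against 42.1%). The 37 lower genes were spread more evenly, with the smallest difference in replicates 1, 2 and 3 for 13, 14 and 10 genes. Without replicate 1, 59 genes were called, without replicate 2, 174, and without replicate 3, 88. Of the 151 higher genes 27 were called in none of these 3 fits, and of the 37 lower genes 22. Chrne, Chrnd, Chrna1, Ache, Colq, Ufsp1, Phldb2, Etv4, Etv5, Prkar1a, Gdnf, Ano4, Pdzrn4, Hs6st2, Gramd1b, Col4a3, Col25a1 and Cxcl14 were called in each of them.

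The same contrast was next set beside that in control mice at 26 weeks and SBMA mice at 15 weeks, which share no library with it. In control mice at 26 weeks 190 genes were called (1.18%), and in SBMA mice at 15 weeks 153 (0.948%). Of the genes tested 1.05% were called higher and 0.124% lower in the first of these groups, and 0.905% and 0.0434% in SBMA mice. Of the 151 genes higher at 15 weeks in controls, 122 were also called higher in controls at 26 weeks, which is 80.8% of the first list and 71.8% of the second. With SBMA mice at 15 weeks 107 were shared, 70.9% and 73.3%. Of the 37 lower genes 8 were also called lower in controls at 26 weeks (21.6%, and 40% of that list) and 5 in SBMA mice (13.5%, and 71.4% of that list). For the 151 genes the median log2 fold change was 1.77 in the group that chose them, 1.51 in controls at 26 weeks and 1.26 in SBMA mice at 15 weeks, and 150 and 151 of them were positive in these other groups. For the 37 lower genes the medians were -1.88, -0.42 and -0.20 in the same order. In the other groups 28 and 26 of these 37 were negative.

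The tests of the difference itself made no call. Between control mice at 15 and 26 weeks no gene had a region difference that passed edgeR's test (0.0%, lowest adjusted p = 0.140; 478 genes had an unadjusted p under 0.05), and DESeq2 called 9. Between control and SBMA mice at 15 weeks none passed either (0.0%, lowest adjusted p = 0.117; 421 with an unadjusted p under 0.05), and DESeq2 called 5. Among these 5 were Chrna1 and Prkar1a. The region difference of Chrna1 was 2.08 ± 0.126 in control mice at 15 weeks, 1.71 in controls at 26 weeks and 1.06 in SBMA mice at 15 weeks, and it was larger in control than in SBMA mice at 15 weeks by 1.02 ± 0.160 (adjusted p = 0.117 with edgeR, 3.69e-05 with DESeq2). For Prkar1a the values were 1.74 ± 0.0862, 1.36 and 1.21, and the difference from SBMA mice was 0.53 ± 0.111 (adjusted p = 0.453 with edgeR, 0.0138 with DESeq2).

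Colq was higher in perisynaptic pieces in controls of both ages (1.02 ± 0.146 and 0.88) and stood at 0.28 in SBMA mice at 15 weeks, where it did not pass (adjusted p = 0.615). The difference of 0.74 ± 0.188 between control and SBMA mice did not pass either (adjusted p = 0.778). Musk was at 0.60 in control mice at 15 weeks and 0.15 in each of the other groups. Etv4 stood at 4.26, 4.45 and 3.29 and Sox10 at 2.61, 2.77 and 2.40 in control mice at 15 weeks, controls at 26 weeks and SBMA mice at 15 weeks. Kera, Tigd4 and Col22a1 were called lower in perisynaptic pieces in all 3 groups, with Tigd4 at -3.36, -2.70 and -3.14. The adipocyte list had medians of -3.66, -1.19 and -0.47 and calls in control mice at 15 weeks alone, a contrast between groups that was tested for single genes and not called for any.

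**Figure D5:**
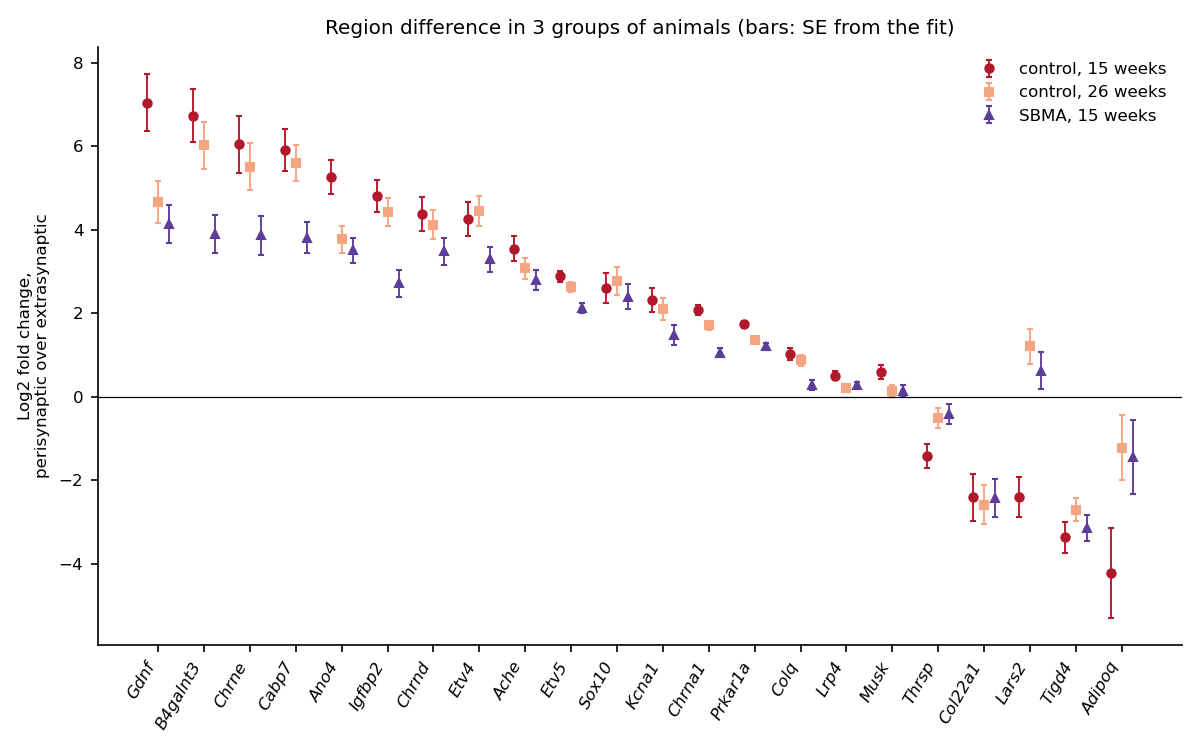
Log2 fold changes, perisynaptic over extrasynaptic, of 22 genes in control mice at 15 weeks (circles), control mice at 26 weeks (squares) and SBMA mice at 15 weeks (triangles), with bars of 1 SE from the fit. Synaptic and nerve genes are positive and tendon genes negative in all 3 groups, while Lars2 is negative in control mice at 15 weeks (-2.40) and positive in the others (1.21 and 0.63).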

How the data were processed

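Reads were counted per gene with featureCounts on mm10, per the submitters' processing notes, and the authors deposited raw counts for 33076 genes in 30 libraries. RNA was extracted with a miRNeasy kit and libraries were made with a stranded KAPA mRNA kit, per the labels' protocols. The sources used here do not give the aligner, the annotation or the strand setting. Of the gene identifiers 33064 matched GENCODE vM21 (GRCm38) by stable ID and 12 did not, with 0.00171% of the counts.

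Low genes were removed by filterByExpr at a minimum of 10 counts and a minimum total of 15. TMM factors scaled the rest, and edgeR 4.0.16 in R 4.3.3 fitted 1 quasi-likelihood model to the 30 libraries. Its 19 columns were 15 animals and 4 region effects, 1 per genotype and age, leaving 11 residual degrees of freedom, and tests are 2-sided. The SE is derived from the F statistic. Levels are CPM on TMM-scaled library sizes. The library names tie the 2 pieces of an animal. Deviations from the group means correlated at 0.322 to 0.335 within an animal and at -0.249 to -0.0842 between animals. Centring on the group mean makes the deviations of 3 libraries cancel, so negative values between animals follow from positive ones within them. Replicates are separate animals, and precision is limited by their number, 3.

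The 42 lists, 44 fixed genes and members were chosen with earlier results of these data known. Named genes are the 15 largest rises and falls among calls at 2 CPM or more in the higher region that moved the same way in each animal, up to 4 called members of each list and the fixed genes. The text gives a selection, and some results are not reported here. Plin1, Cfd, Gm42418 and the genes of the other observations were chosen after their values were seen. Lists are given as counts and medians, with no set test. Their counts of calls stand beside shares of 0.936% higher and 0.229% lower over all genes tested. The model was tested on simulated counts that held no animal effect, so that test does not cover differences between animals. Alternatives were DESeq2 1.42.0, RLE factors, total-count scaling, no filter, no animal term, each animal left out, fits of 6 or 14 libraries and, added after seeing the data, leaving out 79 features like ribosomal RNA.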

Additional observations from a re-analysis of the deposited data

Results flagged for a closer look

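In 8 features every control animal at 15 weeks had the lower level in its perisynaptic piece, while every animal of another group had the higher level there. Against control mice at 26 weeks these were Lars2 (-2.40 in control mice at 15 weeks, 1.21 in control mice at 26 weeks), Mir6236 (-2.46 and 1.35), Gm15564 (-2.49 and 1.30), Gm23935 (-2.42 and 1.36), CT010467.1 (-2.15 and 1.65) and Gm42418 (-2.21 and 1.26). Against SBMA mice at 15 weeks they were Gm37194 (-1.92 in control mice at 15 weeks and 0.89 in SBMA mice) and mt-Tq (-3.18 and 1.49). With edgeR no test of these differences passed: the values ran from -2.81 to -4.66 on the log2 scale, with adjusted p of 0.140 to 0.213. DESeq2 called all of these differences except that of Gm42418. In control libraries at 26 weeks the share of features like ribosomal RNA was 1.69% to 5.37% in perisynaptic and 0.859% to 2.67% in extrasynaptic pieces, the opposite order to that at 15 weeks, and its part was not tested.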

How the results depend on the processing

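The count of 188 region calls was 217 with DESeq2 (164 shared), 188 with RLE factors, 236 with total-count scaling, where 90.7% were higher in place of 80.3%, and 183 without features like ribosomal RNA. It was 568 with no filter on low counts (334 higher and 234 lower, 11 of them outside the filter, 182 shared) and 118 with no replicate block, that is with no animal term (112 higher and 6 lower). The animal as a replicate block in fits of only the 6 or the 14 control libraries gave 226 and 199. Leaving out an animal gave 59 to 174 calls. The cause of these shifts was not tested.

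The difference between control mice at 15 and 26 weeks, with no call, gave 9 calls with DESeq2, 86 with no filter, 5 in the fit of 14 libraries and 0 to 3 without single animals of these groups, the 3 being Gm37194, mt-Nd6 and mt-Tq without control replicate 4 at 26 weeks. Without SBMA replicate 2 at 15 weeks, which shares the estimate of spread, Lars2, Mir6236, Gm15564, Gm23935, Gm42418, CT010467.1 and Rn7sk passed in this contrast. The difference between control and SBMA mice at 15 weeks gave 5 with DESeq2, 154 with no filter and 0 to 6 without single animals, the 6 without SBMA replicate 2 (Lars2, Mir6236, Gm15564, Gm23935, Gm42418 and Rn7sk). Without control replicate 4 at 26 weeks mt-Tq passed in it. With total-count scaling the median gene of these differences stood at 0.10 and 0.11, against 0.022 and 0.0014.

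Signs turned for uncalled genes near 0: Rapsn with total-count scaling (0.068), Myh7 with total-count scaling (0.036), Rapsn at -0.16 to 0.067 and Fos at -0.36 to 0.095 without single animals. Of 78 called genes followed singly none turned, and 40, 18 and 33 lost the call without replicates 1, 2 and 3. Few animals and low extrasynaptic counts limit the sizes of the largest folds.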

Other observations

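The genes named here were picked from the calls after their values were seen and stand for no pathway. Fzd10, a Wnt receptor, was at 9.53, 11.7 and 10.4 CPM in perisynaptic and 2.04, 2.93 and 2.08 CPM in extrasynaptic libraries (2.17 ± 0.214, edgeR adjusted p = 1.24e-05). Wnt16, a Wnt ligand, stood at 1.79 ± 0.245 and Lef1, a transcription factor of the pathway, at 3.31 ± 0.468, and all 3 were called without each animal in turn. Wnt6 (2.10 ± 0.444) and Nkd2, a Wnt inhibitor (1.51 ± 0.292), also passed but lost the call without at least 2 of the animals. Gli1, a Hedgehog target that overlaps Arhgap9 on the opposite strand, stood at 1.77 ± 0.262 and lost its call without replicate 1. The receptor gene Ptch1 stood at 0.56 ± 0.110 and lost its call without replicate 1 or 3.

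Rps6ka1, a kinase downstream of ERK, was at 28.9, 32.3 and 37.2 CPM in perisynaptic and 5.33, 5.60 and 5.27 CPM in extrasynaptic pieces (2.59 ± 0.150, adjusted p = 2.12e-08). Map2k1, which activates ERK, was at 81.3, 74.1 and 78.6 CPM in perisynaptic and 51.3, 48.3 and 50.6 CPM in extrasynaptic pieces, tight within each region (0.64 ± 0.0656, adjusted p = 2.03e-05). Dusp6, a phosphatase induced by ERK, stood at 0.92 ± 0.160 and lost its call without replicates 1 and 3 in turn. Tnnt2, the cardiac troponin T gene, was at 12.2, 11.5 and 11.2 CPM in perisynaptic and 1.26, 3.02 and 2.04 CPM in extrasynaptic pieces (2.49 ± 0.319), and Crym, which binds thyroid hormone, stood at 2.36 ± 0.318. Chad, a matrix protein of cartilage and tendon, had 0.0821, 0.103 and 0 CPM in perisynaptic and 3.09, 5.90 and 0 CPM in extrasynaptic pieces (-5.52 ± 0.865, adjusted p = 0.0024), with no count in either piece of replicate 3. DESeq2 did not call Chad, and its call was lost without replicate 1 or 2.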
